A study of Mus musculus with 15 samples.

Results

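H3K27ac peaks that stood alone in the genome were described in a mouse tumor of PAX3-FOXO1 (P3F) rhabdomyosarcoma. A peak was taken as isolated when no other peak of the same list had an edge within 50 kb on either side on its chromosome, and only autosomes were used. The rule selected 1390 of the 120670 autosomal peaks (1.15%), in a list of 122375 peaks. The members were chosen by the start and end positions of the peaks, so the spacing is a description and not a finding. The series held 15 CUT&RUN libraries, with 6 from MCP tumors and 3 from TCP tumors made with an antibody to H3K27ac and 3 of each tumor type made with IgG. The list belongs to the library MCP H3K27ac replicate 5, and the other 14 libraries were not used here, so there are no replicates and no difference between MCP and TCP tumors was examined. MCP tumors arise where Myf6-Cre, which acts in myogenic cells, switches on the P3F allele Pax(3P3F/P3F), deletes the floxed tumor suppressor locus Cdkn2a(Flox/Flox) and lights the R26-tdTom reporter. TCP tumors carry the same alleles with Tek-Cre, which acts in endothelial and hematopoietic cells. Live tumor cells, sorted from dissociated tumors with DAPI as the stain for dead cells, were profiled, and the age of the mice is not given in the sources used here.

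H3K27ac is the acetylation of lysine 27 on histone H3, a mark of active promoters and enhancers. Active genes usually carry the mark over several neighboring nucleosomes at the start site and at clusters of enhancers around the gene, so most peaks of such a list lie side by side. CUT&RUN releases the DNA beside an antibody-bound nucleosome with a tethered nuclease. A peak that lies alone can be the start site of a gene in a sparse region, a remote enhancer, or a small pile of fragments near the limit of detection, and the list does not label which.

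The depth behind the peaks was low. The fragments over each summit were recovered from the fold enrichment and p of the caller, and the isolated peaks rested on a median of 11 fragments (quartiles 9 and 13, range 7 to 241) against a median of 13 for the other peaks. Fewer than 20 fragments lay over 94.3% of the isolated summits and over 84.0% of the others. Fewer than 10 lay over 27.6% of the isolated summits (95% Wilson interval 25.3 to 30.04%) and over 16.3% of the others. All intervals cover counting error only and describe this library, and none carries over to other tumors. Any promoter peak was found for 46.6% of protein-coding genes on the autosomes. Among the cell type markers, a peak lay within 2 kb of the start site for 1 of 14 endothelial genes (Cd34), 1 of 14 immune genes (Cd68), 1 of 12 neuronal genes (Eno2), 4 of 10 fibroblast genes (Col3a1, Fn1, Pdgfra and Postn) and 1 of 10 hepatocyte genes (Apoa2). Neither Myod1 nor Myog, which define myogenic tumor cells, had a promoter peak in the list.

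The sequences under a few isolated peaks show the kinds of site they covered. The first set is from promoters, with each CpG in capitals, because the peaks at start sites ranged from CpG-rich to CpG-poor. All are given on the plus strand of mm10. The window of 151 bp around the summit at C920006O11Rik, chr9:78175964-78176114, held 16 CpG, and the window at Ltv1, chr10:13192591-13192741, held 3. The whole peak at Zfp994, chr17:22225478-22225600, held 10, and the whole peak at Foxo1, chr3:52270242-52270366, held 5.
C920006O11Rik: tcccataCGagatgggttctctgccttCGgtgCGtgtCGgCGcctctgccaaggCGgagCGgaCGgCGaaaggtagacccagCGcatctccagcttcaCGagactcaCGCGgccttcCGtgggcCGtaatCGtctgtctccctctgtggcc
Ltv1: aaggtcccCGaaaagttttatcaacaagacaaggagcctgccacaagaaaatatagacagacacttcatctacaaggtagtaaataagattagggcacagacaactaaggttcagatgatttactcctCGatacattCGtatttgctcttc
Zfp994: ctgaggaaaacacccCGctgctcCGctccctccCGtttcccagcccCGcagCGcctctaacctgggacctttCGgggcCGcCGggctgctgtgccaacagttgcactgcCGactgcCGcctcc
Foxo1: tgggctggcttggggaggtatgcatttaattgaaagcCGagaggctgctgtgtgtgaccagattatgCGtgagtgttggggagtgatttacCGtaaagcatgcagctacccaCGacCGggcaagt

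The second set is from distal peaks, far from any start site. The strongest, chr11:37564787-37565020, and the most remote, chr14:111705576-111705656, are shown whole with CpG in capitals, and they held 1 and 2 CpG.
Strongest distal: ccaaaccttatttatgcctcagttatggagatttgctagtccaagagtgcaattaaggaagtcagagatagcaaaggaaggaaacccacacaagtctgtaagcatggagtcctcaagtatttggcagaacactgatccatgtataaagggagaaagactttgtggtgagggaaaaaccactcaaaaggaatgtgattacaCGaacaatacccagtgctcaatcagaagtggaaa
Most remote: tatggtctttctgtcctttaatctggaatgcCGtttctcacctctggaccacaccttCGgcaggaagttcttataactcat

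The third set is of distal peaks that held the AP-1 word TGANTCA within 100 bp of the summit, because that word was more frequent at isolated distal peaks than at others. AP-1 is the family of Fos and Jun transcription factors, which bind enhancers in many cell types. Windows of 201 bp around the summit are given for 3 of the 4 such peaks of highest fold, with the word in capitals. They lie 16.6 kb from the nearest start site, that of Lrrc4c (chr2:96301440-96301640), 66.0 kb from Ccdc130 (chr8:84336293-84336493) and within Tox (chr4:6736554-6736754).
Near Lrrc4c: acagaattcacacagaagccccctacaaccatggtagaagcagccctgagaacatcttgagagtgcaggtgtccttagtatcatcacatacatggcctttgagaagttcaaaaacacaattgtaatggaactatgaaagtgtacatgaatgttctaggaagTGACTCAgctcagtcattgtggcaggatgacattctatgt
Near Ccdc130: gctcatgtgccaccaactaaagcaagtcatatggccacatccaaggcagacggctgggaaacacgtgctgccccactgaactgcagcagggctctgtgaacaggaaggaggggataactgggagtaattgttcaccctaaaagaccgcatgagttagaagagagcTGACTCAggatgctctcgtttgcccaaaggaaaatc
Within Tox: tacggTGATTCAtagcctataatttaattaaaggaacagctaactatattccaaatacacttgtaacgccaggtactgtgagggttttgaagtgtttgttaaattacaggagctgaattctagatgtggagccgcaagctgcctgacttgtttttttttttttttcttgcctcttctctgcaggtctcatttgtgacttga

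The room for isolated peaks was set by the same peak positions that chose them, so its size is a description too. This room, the bases over 50 kb from every non-isolated peak, made up 1275 Mb, or 53.2% of the sequenced autosomal genome. By the rule it held all 1390 peaks. The median distance to the nearest other peak was 84.8 kb (quartiles 61.5 and 137.9 kb), 561 isolated peaks (40.4%) lay over 100 kb from any other, 44 over 500 kb and 13 over 1 Mb. Some of the isolated peaks followed each other along a chromosome. The next peak on at least 1 side was itself isolated for 476 of them (34.2%), and there were 32 runs of 3 consecutive isolated peaks, 7 runs of 4 and 2 runs of 5. A run of 5 spanned 2199 kb on chromosome 16 with nearest start sites of Cadm2, which encodes a synaptic cell adhesion molecule, and 4930428D20Rik, and the other spanned 3014 kb on chromosome 1 up to B3galt2. A run of 4 spanned 392 kb on chromosome 8, and Hsbp1 had the nearest start site of all 4 peaks, which does not place them in that gene.

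The 3 isolated peaks nearest to the limit had their nearest neighbor at 50.006 kb (at the start site of Optn, fold 4.79), 50.043 kb (in Stim2, fold 3.50) and 50.14 kb (chromosome 13, fold 3.50). The 3 peaks nearest to it on the other side had theirs at 49.959 kb (in Snx30, fold 6.08), 49.916 kb (in Pald1, fold 4.71) and 49.904 kb (at Zfp976, fold 3.93). Nothing in these values separates the sides of the limit.

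Isolated peaks lay outside genes more often than other peaks did. Their summits were intergenic in 56.3% of cases (95% interval 53.6 to 58.9%), against 32.9% (32.6 to 33.1%) of the other peaks. It was 31.4% at 1 to 5 kb from a neighbor and 58.5% beyond 100 kb, and among the 1717 peaks 25 to 50 kb from a neighbor it was 46.0% (43.7 to 48.4%). Isolated peaks lay in introns in 40.7% against 61.8% and in exons in 3.02% against 5.34%. Isolated peaks were therefore less often inside genes than other peaks, yet more often than the room open to them, of which 69.2% was intergenic, 29.5% intron and 1.39% exon. The sequenced autosomal genome as a whole was 58.5% intergenic.

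**Figure D1:**
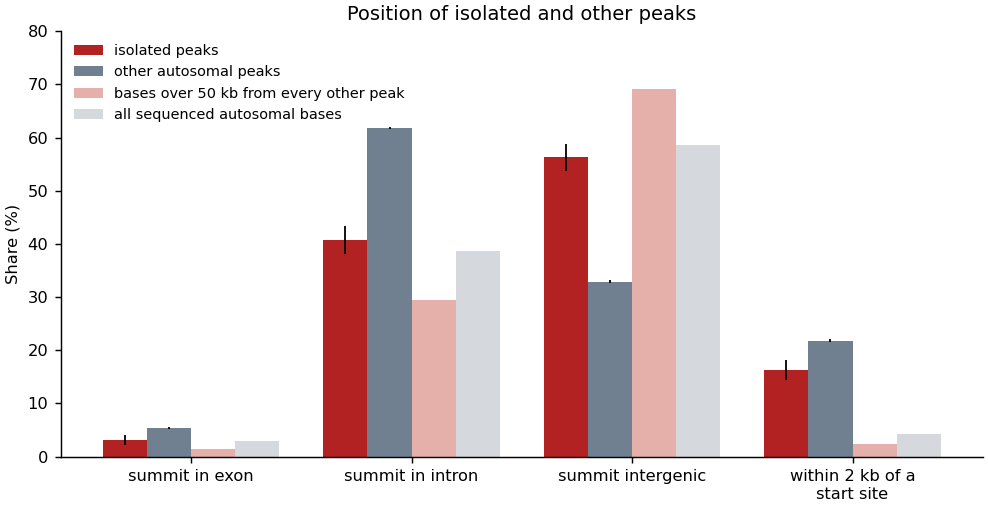
Share (%) of isolated peaks (n = 1390) and other autosomal peaks (n = 119280) by position of the summit and by overlap with a window of 2 kb either side of a start site, with Wilson 95% intervals as error bars, beside the share of bases in the room over 50 kb from every non-isolated peak and in all sequenced autosomal bases. The intergenic share of isolated peaks (56.3%) lies between that of other peaks (32.9%) and that of the room (69.2%), and their promoter share (16.2%) is below that of other peaks (21.8%) and above that of the room (2.35%).

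Promoters were a minority of the isolated peaks but far above their share of the room. Of the 1390 peaks, 225 overlapped a promoter, which was taken as 2 kb on each side of an annotated RefSeq start site. That is 16.2% (95% interval 14.3 to 18.2%), against 21.8% (21.6 to 22.0%) of other peaks and 2.35% of the bases in the room. The gap to other peaks narrowed with the definition, to 14.9% against 16.4% with promoters of 1 kb. Among the 18631 other peaks with no neighbor within 1 kb, 16.6% (16.1 to 17.1%) were at promoters, which lies inside the interval of the isolated peaks. This comparison was chosen after seeing the data. When peaks with a -log10 q under 5 were dropped before isolation was decided, 26.96% of the isolated and 26.6% of the other peaks were at promoters, so the direction turned.

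The other 1165 isolated peaks were distal. Of these, 738 were intergenic and 412 intronic by summit. Their summits lay a median of 87.3 kb from the nearest start site (quartiles 35.1 and 202.7 kb), against 27.4 kb for other distal peaks. For 545 (46.8%) the nearest start site was over 100 kb away, against 15.0% of other distal peaks, and for 79 it was over 500 kb away. Over all isolated peaks the median distance was 63.4 kb, against 17.4 kb for the other peaks, 33.6 kb for the 1717 peaks with the nearest neighbor 25 to 50 kb away, and 101 kb for a base of the room. No start site lay within 50 kb of 785 isolated peaks (56.5%, interval 53.9 to 59.1%), against 24.7% of the others.

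Isolated peaks were weaker and narrower than the rest of the list, and the contrast lay between peaks with a close neighbor and all the rest. The median fold enrichment over local background was 4.79 (quartiles 4.08 and 5.64) for isolated peaks and 5.22 (4.36 and 6.51) for the others. The median -log10 q was 3.41 against 4.54, and 30.1% of isolated peaks against 48.3% of the others reached a -log10 q of 5. The median width was 121 bp (interval 116 to 126 bp) against 164 bp (163 to 165 bp). With the other peaks weighted to the fragment numbers of the isolated ones, their median was 133 bp. Of isolated peaks 7.55%, against 15.3% of the others, were wider than 500 bp. Fold and width were lower in isolated peaks on 19 of 19 autosomes. The caller's background was at its lowest value for 59.4% of isolated peaks and 46.6% of the others.

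Spacing beyond 1 kb made little difference to strength. Of the autosomal peaks, 100649 (83.4%) had a neighbor within 1 kb, and their median fold was 5.22 and median width 175 bp. In every wider class of spacing, from 1 to 5 kb up to over 100 kb, the median fold was 4.79 and the median number of fragments 11, and the median width ran between 120 and 126 bp. Peaks alone for over 100 kb (n = 561) had a median width of 122 bp, and peaks 1 to 5 kb from a neighbor (n = 9519) had 126 bp. Whether an extended domain of the mark is cut into several peaks by the caller was not tested.

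**Figure D2:**
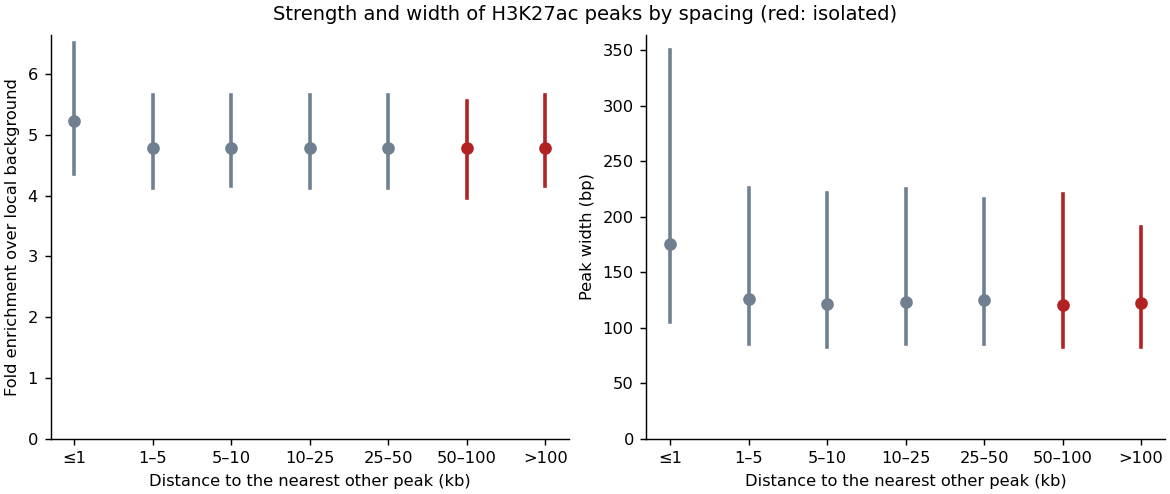
Median (points) and quartiles (bars) of fold enrichment over local background (left) and of peak width in bp (right), by distance to the nearest other peak in kb, with the 2 classes of isolated peaks in red. Medians drop from 5.22 to 4.79 in fold and from 175 to 126 bp in width between the first and second class, and then stay level.

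The single strongest isolated peaks were well above these medians. A fold over 10 was reached by 25 isolated peaks (1.80%), 13 of them at promoters, against 4.39% of other peaks. The highest fold of an isolated peak, 18.997 with 43 fragments and a width of 1298 bp, was at chr9:78175870-78177167 at the start of the long noncoding RNA gene C920006O11Rik. Its neighbors were 62.1 kb away at Cilk1 and 52.5 kb away at Gsta1, and the one at Gsta1 was isolated as well. The next peak in rank lay at chr11:37564787-37565020 in intergenic sequence 94.1 kb from the nearest start site, Gm12128, with a fold of 17.1 and 57 fragments over a local background of 2.00. It was 1563 kb from the peak on its left and 2837 kb from the peak on its right, and the 31 bases at its summit occurred once in the genome.

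The other distal peaks among the 10 of highest fold were wide. A peak of 1886 bp at chr16:72503149-72505034 had a fold of 16.2 and 43 fragments, 158.5 kb from the nearest start site, of the axon guidance receptor Robo1. A peak of 1971 bp at chr1:172710861-172712831 had a fold of 13.1, 13.5 kb from the start site of Crp, which encodes C-reactive protein. A peak of 1789 bp at chr19:50145800-50147588, in an intron of the sorting receptor gene Sorcs1, had a fold of 12.5 and no other peak within 1205 kb. A peak of 2083 bp at chr1:44956662-44958744, 212.9 kb from 4930521E06Rik, had a fold of 12.3. The strongest distal peak, on chromosome 11, was narrower at 234 bp.

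**Figure D3:**
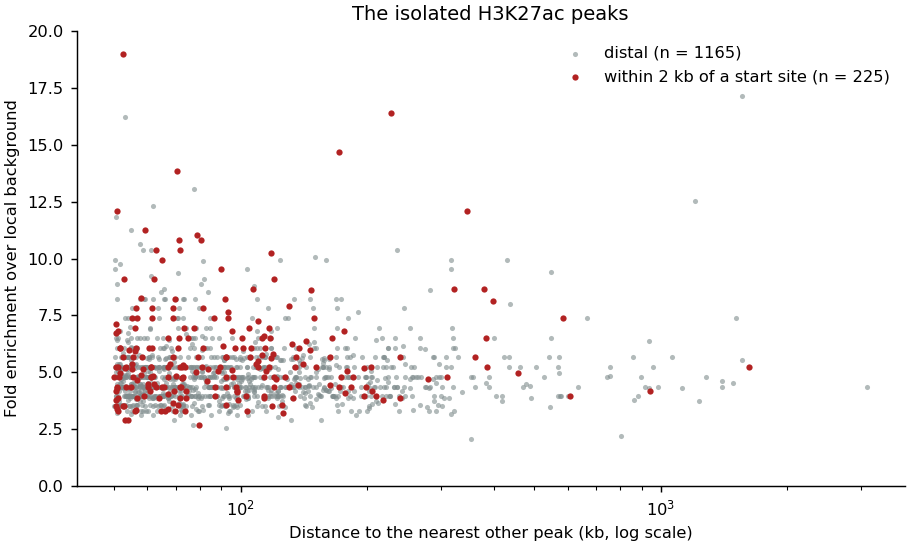
Each point is 1 isolated peak, with the distance to the nearest other peak in kb (log scale) on the horizontal axis and fold enrichment over local background on the vertical axis, with promoter peaks (n = 225) in red and distal peaks (n = 1165) in grey. Most points lie under a fold of 10, and the peak on chromosome 11 with a fold of 17.1 stands at 1563 kb.

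The widest isolated peak covered 3267 bp at chr9:54152953-54156219, with a fold of 9.96, 38.5 kb from the start site of the aromatase gene Cyp19a1. The next widest were 2416 bp at chr7:137864212-137866627 (fold 10.1, nearest start site Glrx3 at 427.7 kb) and 2102 bp at chr2:96300441-96302542 (fold 9.77, Lrrc4c, a synaptic adhesion gene, at 16.6 kb). The 5 most remote isolated peaks with complete sequence around them had folds from 4.36 to 17.1, and they included the peak on chromosome 11 and the peak at Zfp971 (fold 5.22). The most remote, 81 bp at chr14:111705576-111705656, had 9 fragments and a fold of 4.36, was 3092 kb from the next peak and lay 29.6 kb from the start site of Slitrk5, which encodes a synaptic membrane protein. Peaks 1507 kb from the next peak on chromosome 12 and 1484 kb from it on chromosome 16 had folds of 7.37 and 4.54. The peak on chromosome 16 lay 1472 kb from the nearest start site, that of Ncam2, and its summit sequence occurred 3 times in the genome.

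Isolated promoter peaks of high fold lay at genes of varied function. After C920006O11Rik, the highest folds were 16.4 at Ltv1, a factor of small ribosomal subunit assembly (508 bp, 37 fragments), 14.7 at Cldnd1, a claudin-domain membrane protein (742 bp, 33 fragments), and 13.8 at Tmtc4, a protein of the endoplasmic reticulum (582 bp, 31 fragments). Reps1, which takes part in endocytosis, and Ifngr1, the receptor for interferon gamma, each had a fold of 12.1 with 27 fragments. The next were Zfp994 (11.2), the tubulin gene Tuba3b (11.0), the methionine sulfoxide reductase gene Msrb2 (10.8) and Vps18, which acts in vesicle sorting (10.8). The Ltv1 peak stood 228 and 360 kb from its neighbors and the Cldnd1 peak 172 and 759 kb, so strong signal at these start sites had no other peak around it. The 31 bases at the Tuba3b summit had 2 genome copies, and a peak number is absent beside the Vps18 peak, so its isolation is less certain.

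Isolated promoter peaks stood mostly just downstream of the start site. Of the 224 with the summit within 2 kb, 168 had it downstream (interval of the share 68.9 to 80.2%), against 64.2% (63.6 to 64.8%) of other promoter peaks. Their median offset was 446 bp downstream (quartiles 13 and 627 bp), and 16.1% of summits lay within 200 bp of the start site. Isolated promoter peaks had a median fold of 5.22 (interval 4.97 to 5.35) and a median width of 145 bp (129 to 166 bp). The values were 5.55 and 186 bp for other promoter peaks. For the 321 promoter peaks 25 to 50 kb from a neighbor they were 5.115 (4.79 to 5.22) and 141 bp (127 to 167 bp). Lower fold and width were thus not particular to isolated promoter peaks. Isolated promoter peaks had a median of 2 start sites within 50 kb, against 3 for other promoter peaks.

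Genes with a lone peak had CpG-rich promoters, as did other genes with a peak. Of 19991 autosomal protein-coding genes, 218 (1.09%) had an isolated peak at a promoter and 9318 (46.6%) had any peak there. Over all 24963 RefSeq genes, 255 (1.02%) had an isolated one. In the 300 bp from 250 bp before the start site, the median ratio of observed to expected CpG was 0.781 (interval 0.750 to 0.818) for the 218 genes, 0.795 (0.790 to 0.801) for the 9100 genes with other peaks only, and 0.313 (0.305 to 0.322) for the 10673 genes without a peak. A ratio above 0.6 was found at 68.8% (62.4 to 74.6%), 76.4% and 28.0% of them. Among the 9100 genes, 1853 had a single promoter peak and 7247 had several, with a median of 3, so a lone peak at a start site was the less common arrangement.

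The gene lists held few genes with a lone promoter peak. Genes with a Zfp name encode zinc finger proteins and mostly repressors. Of 383 such genes, 267 (69.7%) had any promoter peak, beside 46.6% of all protein-coding genes. An isolated promoter peak was found at 11 of the 383 (2.87%, interval 1.61 to 5.07%), beside 1.09% of all protein-coding genes. They were Zfp141, Zfp157, Zfp280b, Zfp334, Zfp354c, Zfp715, Zfp808, Zfp868, Zfp937, Zfp971 and Zfp994, with folds from 4.45 at Zfp141 to 11.2 at Zfp994. The summit sequence occurred 9 times in the genome at Zfp808, 2 times at Zfp937 and 32 times at Zfp971, and the part of such copies in the signal was not tested. Zfp genes lie in clusters of similar members, and the peak at Zfp971 had its neighbors 3521 and 1624 kb away.

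None of 8 housekeeping genes on the autosomes had an isolated promoter peak (interval up to 32.4%), although all 8 had a promoter peak. None of 175 genes of the mitochondrial ribosome and respiratory chain had an isolated one (interval up to 2.15%), although 150 (85.7%) had a promoter peak. Both intervals include the 1.09% of all protein-coding genes, of which 46.6% had any promoter peak. Of 92 genes with a name beginning in Rpl or Rps, 81 (88.0%) had a promoter peak and 1 (1.09%) had an isolated one. The isolated peak was at Rps6ka5, a kinase gene (fold 6.08). Of 1446 smell receptor genes 4 (0.277%) had any promoter peak and none an isolated one (interval up to 0.265%). Of 1105 microRNA genes 11 (0.996%) had an isolated peak, beside 1.02% of all RefSeq genes. Of the 11 genes, 7 had it through 1 peak at chr14:115043011-115043141 (fold 4.36, 9 fragments). This peak lay at the Mir17 cluster and its host transcript Mir17hg, which gives rise to oncogenic microRNAs.

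Foxo1, which gives its transactivation domain to the fusion protein, was the single gene of 20 rhabdomyosarcoma genes with an isolated promoter peak. That is 5.0% (interval 0.888 to 23.6%), and the interval includes the 1.09% of all protein-coding genes. Any promoter peak was found at 11 of the 20 (55.0%), beside 46.6% of all protein-coding genes. The Foxo1 peak lay at chr3:52270242-52270366 in an intron, 1961 bp downstream of the start site, at the edge of the promoter window. It had a fold of 8.24 and 18 fragments over 125 bp, and the nearest peaks were 69.6 and 121 kb away. With promoters of 1 kb it would count as distal. Of 202 developmental transcription factor genes, 57 (28.2%) had a promoter peak, beside 46.6% of all protein-coding genes. An isolated one was found at 2 of them (0.990%, beside 1.09% of all), Foxo1 and Pax9 (fold 4.61, 11 fragments, 83 bp, in a coding exon). Of 240 synaptic and neural adhesion genes, 23 (9.58%) had a promoter peak and 1 (0.417%) an isolated one, Pcdhga10 (fold 5.22).

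Of the cell type marker genes, 1 had an isolated promoter peak, the fibroblast marker Pdgfra, which encodes a receptor for platelet-derived growth factor. Its peak had a fold of 5.35 and 12 fragments, and 88.1% of the window at the summit was repeat sequence, with 234 genome copies of the 31 bases at the summit. No myogenic, endothelial, immune, neuronal or hepatocyte marker had an isolated promoter peak (0 of 14, 0 of 14, 0 of 14, 0 of 12 and 0 of 10). The intervals of these shares reach from 21.5% to 27.8% and include the 1.09% of all protein-coding genes.

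The genes nearest to isolated distal peaks were many and seldom shared. The 1165 distal peaks had 997 different genes at the nearest start site, 863 of them with 1 peak each, and 6 genes had 4 peaks each, the most for any gene. They were Cbln2, Cdh12, Isl1, Nrxn3, Nudt12 and Tenm3. Cbln2, Cdh12, Nrxn3 and Tenm3 encode proteins of synapses and cell adhesion, and Isl1 a transcription factor of motor neurons and heart. The peaks of Nrxn3 lay inside the gene with folds of 3.93 to 4.46, and those nearest to Isl1 lay 101 to 551 kb from it with folds of 3.28 to 4.83. The 4 peaks nearest to Cbln2 had folds of 3.58 to 8.24 at 306 to 1005 kb.

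Start sites of synaptic and neural adhesion genes were the nearest for 40 isolated distal peaks (3.43%, interval 2.53 to 4.64%), against 1.18% of other distal peaks, but for 5.78% of the distal bases in the room. Smell receptor genes were the nearest for 17 (1.46%, 0.913 to 2.32%), against 0.0976% of other distal peaks and 3.37% of the room. Both shares were thus above those of other peaks and below those of the bases where an isolated peak could lie. For developmental transcription factors the shares were 0.944% of isolated distal peaks, 1.04% of other distal peaks and 1.06% of the room, and for Zfp genes 0.515%, 0.740% and 0.726%. The shares for microRNA genes were 3.35%, 4.18% and 3.31%. The remaining lists each had the nearest start site of 3 or fewer isolated distal peaks.

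The base composition at the summit was slightly lower in GC. In the 201 bp around the summit, median GC was 43.3% (interval 42.8 to 43.8%) at isolated peaks and 45.8% at the others. At promoters it was 48.8% (47.3 to 50.3%) and 48.3%, and the ratio of observed to expected CpG was 0.478 (0.441 to 0.523) at isolated and 0.388 (0.383 to 0.393) at other promoter peaks. It was 0.478 (0.435 to 0.520) as well at promoter peaks 25 to 50 kb from a neighbor, so the ratio was not particular to isolated peaks. The summit lay in repeat sequence for 17.1% (15.2 to 19.2%) of isolated peaks and 19.3% of the others. The 31 bases at the summit were unique in the genome for 93.5% of isolated and 93.1% of other peaks, and they had 10 or more copies at 40 isolated peaks (2.88%).

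Short sequence words of transcription factors were counted on both strands within 100 bp of the summit. The AP-1 word TGANTCA was present at 163 isolated peaks (11.7%, interval 10.1 to 13.5%) and 7.99% (7.84 to 8.14%) of the others. At distal peaks it was present at 158 isolated peaks (13.6%, 11.7 to 15.6%) against 8.85% (8.67 to 9.03%), and at promoters at 5 isolated peaks (2.22%, 0.953 to 5.10%) against 4.91%. Windows 1 kb from the summit of isolated distal peaks held the word in 6.48% of cases. The summit windows thus held it 2.09 times as often, against 1.23 times for other distal peaks. At distal peaks 25 to 50 kb from a neighbor the shares were 12.2% at the summit and 6.125% in windows 1 kb away. With a neighbor within 1 kb they were 8.48% and 7.53%, so the contrast was not particular to isolated peaks. Many windows 1 kb from other peaks overlap a neighboring peak. With all other peaks, promoters included, weighted to the GC of the isolated peaks, 8.26% held the word, beside 11.7% of all isolated peaks. This weighting was added after seeing the data.

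The share of distal peaks with the word was higher in the wider classes of spacing. It was 8.48% (8.28 to 8.68%) with a neighbor within 1 kb, 9.73% at 1 to 5 kb, 11.3% at 5 to 10 kb, 11.9% at 10 to 25 kb, 12.2% (10.6 to 14.0%) at 25 to 50 kb, 14.4% (11.98 to 17.2%) at 50 to 100 kb and 12.3% (9.69 to 15.6%) beyond 100 kb. The intervals of the last 3 classes overlap, so the isolated peaks were not set apart from peaks 25 to 50 kb from a neighbor. In strength, isolated distal peaks with the word (median fold 4.46, interval 4.36 to 4.79) and without it (4.77, 4.54 to 4.79) had overlapping intervals, and median widths of 117 and 116 bp.

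The AP-1 words were denser 100 to 200 bp from the summit than at the summit. In isolated distal peaks there were 6.27 words per 100 peaks in the 50 bp from 200 to 150 bp on the left of the summit and 6.78 in the next 50 bp, but 3.00 to 3.52 in the 50 bp on each side of the summit. On the right side the highest value was 5.49, at 150 to 200 bp. At 400 to 450 bp the values were 2.06 on both sides (24 words each), below the 2.34 and 2.33 of other distal peaks. At 450 to 500 bp they were 2.66 on the left and 2.75 on the right, above the 2.45 and 2.54 of other distal peaks. Other distal peaks were also highest 100 to 200 bp from the summit, with 4.22 and 4.11 words per 100 peaks at the left and 2.19 to 2.31 at the summit. Within 250 bp of the summit, a window chosen after seeing this profile, 37.9% (35.2 to 40.8%) of isolated distal peaks and 27.4% (27.1 to 27.7%) of other distal peaks held the word. In that window the share was 37.97% at distal peaks 25 to 50 kb from a neighbor and 26.8% at those with a neighbor within 1 kb. The higher share was thus not particular to isolated peaks.

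**Figure D4:**
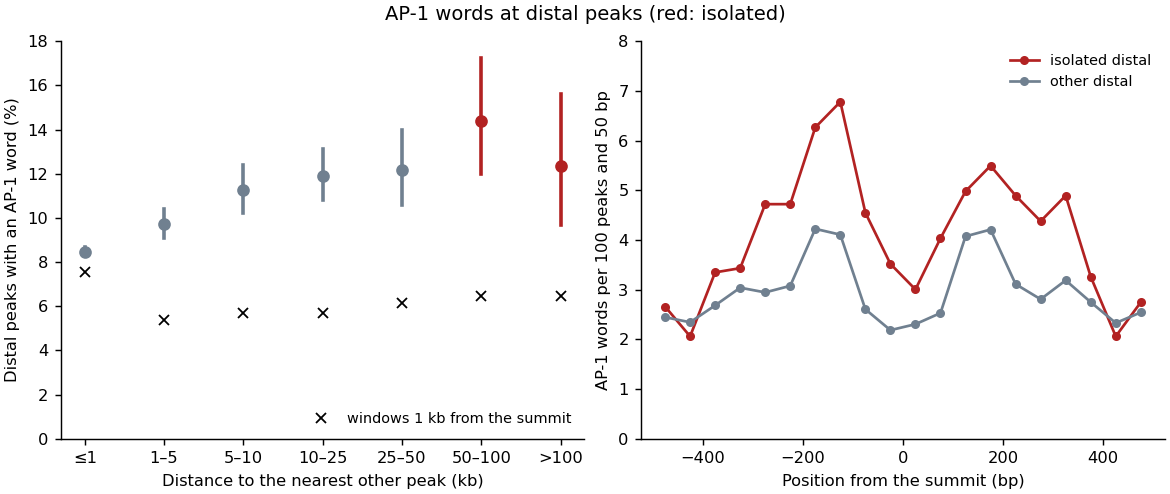
Left, share (%) of distal peaks with the AP-1 word within 100 bp of the summit by distance to the nearest other peak, with Wilson 95% intervals, isolated classes in red, and crosses for windows 1 kb from the summit. Right, AP-1 words per 100 distal peaks in steps of 50 bp around the summit, with the isolated peaks highest at 6.78 words between 150 and 100 bp on the left.

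The other words differed less. At distal peaks the RUNX word TGTGGT was present at 18.9% (16.7 to 21.2%) of isolated and 16.8% of other peaks, and the SP/KLF word GGGCGG at 1.89% (1.25 to 2.84%) against 2.70%. The E-box CAGCTG, which myogenic factors such as MYOD1 bind, was present at 10.8% (9.16 to 12.7%) against 10.3%, the TEAD word GGAATG at 12.2% against 11.6%, and the MEF2 word CTANNNNTA at 23.9% against 22.5%. The words CCAAT of NFY (23.9% against 22.4%) and AAGATGG of YY1 (3.61% against 3.93%) also differed by less than the interval of the isolated peaks. The CRE word TGACGTCA was at 2 isolated distal peaks (0.172%, against 0.158% of other distal peaks) and the ETS word CCGGAAGT at 0 (interval up to 0.329%, against 0.221%). A CTCF word was found at no isolated peak (interval up to 0.276%) and at 68 other peaks (0.0570%).

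Some isolated peaks carried signs that their isolation or their signal is uncertain. A peak number was missing from the list beside 24 of them (1.73%, against 0.454% of other peaks), and unsequenced bases or a chromosome end lay within 50 kb of 11. Without these the isolated peaks numbered 1356, with 15.8% at promoters. A local background above 5 fragments was recovered at 6 isolated peaks, of which 5 had the summit in repeat sequence. The largest had 241 fragments over a background of 56.5 at chr19:61266727-61266880, the last peak of its chromosome and beside a missing number, with a fold of 3.72.

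The share of isolated peaks varied by chromosome. It was lowest on chromosome 11, where 44 of 9697 peaks were isolated (0.454%, interval 0.338 to 0.608%) at 79.4 peaks per Mb, and highest on chromosome 13, where 106 of 5066 were (2.09%, 1.73 to 2.52%) at 42.1 peaks per Mb. Per Mb of chromosome the isolated peaks ranged from 0.360 on chromosome 11 to 0.880 on chromosome 13. The intergenic share was higher in isolated than in other peaks on 19 of 19 autosomes, the AP-1 share on 15 and the promoter share lower on 14.

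**Figure D5:**
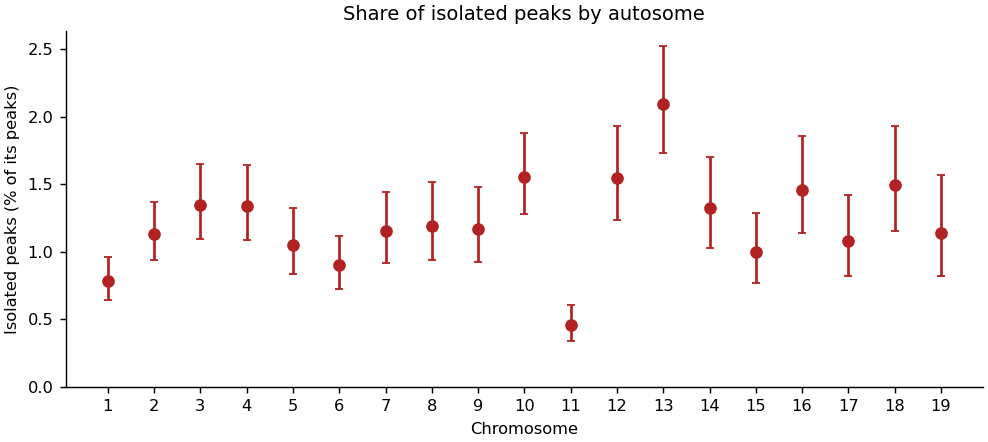
Isolated peaks as a share (%) of the peaks on each autosome, with Wilson 95% intervals. Chromosome 11 is lowest at 0.454% and chromosome 13 highest at 2.09%.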

How the data were processed

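The list gives H3K27ac peaks of 1 CUT&RUN library from an MCP tumor in mm10, and states no depth. Per its methods the study aligned read pairs to the mouse genome and ran MACS against IgG, with problematic regions removed, while the submitters' processing notes name BWA, SAMtools and MACS2. The authors' deposited score is the caller's own rank value, and the -log10 p and -log10 q were deposited beside the fold. The fold is a ratio of pileup to local background at the summit as the authors' caller computed it. It was taken here with a pseudocount of 1 added to both, so it is lower than the plain ratio. Peak numbers run to 122959 and 584 are absent.

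Edge-to-edge distances gave the isolated peaks. Whole fragments over each summit were solved from fold and -log10 p with 1 scale, 0.885, which gave a whole number within 0.01 for 99.999% of the peaks against 1.0% with a scale 3% off, and a single solution for 96.4%. These are inferences, and without molecular identifiers a fragment need not be a separate molecule. Start sites (30179 on autosomes), exons, introns and sequence came from RefSeq on GRCm38.p6. Summits were assigned to exon, then intron, then intergenic. Words and GC were read within 100 bp of the summit, and repeats are the lower case of the reference. Room was every sequenced autosomal base over 50 kb from each non-isolated peak. Shares have Wilson and medians binomial 95% intervals, and no test was run, since peaks of 1 library are not replicates. The members and lists were chosen with earlier results of these data known. Named peaks were the 10 of highest fold, the 10 promoter peaks of highest fold, the 5 widest, the 5 most remote with no missing number or unsequenced bases within 50 kb, 3 on each side of the limit, and promoter members in the gene lists. Peaks with high background, runs and recurrent genes were chosen after their values were seen. The lists were housekeeping, rhabdomyosarcoma, developmental transcription factor, synaptic and neural adhesion, Rpl and Rps, Zfp, mitochondrial, smell receptor and microRNA genes, and markers of 6 cell types. The promoter peaks of the myogenic list are not reported here, apart from isolated ones and those of Myod1 and Myog. Steps were tested on simulated data. Python 3.11.15, pandas 2.3.3, scipy 1.17.1 and pysam 0.24.0 were used.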

Additional observations from a re-analysis of the deposited data

Results flagged for a closer look

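The X chromosome was outside the autosomal comparison and also held isolated peaks. By the same rule 81 of its 1704 peaks were isolated (4.75%, Wilson 95% interval 3.84 to 5.87%), which is a larger share than on any autosome, where the highest was 2.09%. Their median fold was 4.79 and their median width 107 bp, against 4.79 and 140 bp for the other peaks of X. The isolated peaks numbered 0.474 per Mb on X, within the range of the autosomes.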

How the results depend on the processing

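No paired analysis was possible because the list holds 1 library. Of 68 values recomputed under alternatives, 46 stayed within the interval of the members or within 1.5 times the count, 21 moved and 1 reversed. The cause was not tested unless the alternative itself changes what is counted. The number of isolated peaks was 3107 at 25 kb and 561 at 100 kb. At 25 kb 549 protein-coding genes had an isolated promoter peak, in place of 218. The intergenic share exceeded that of other peaks by 17.9 percentage points at 25 kb and by 13.8 when peaks with a -log10 q under 5 were dropped before isolation was decided. The median distance to a start site exceeded that of other peaks by 25.9 kb at 25 kb, 83.6 kb at 100 kb, 20.5 kb with that filter before isolation and 36.0 kb with it afterwards. The promoter share reversed with the filter before isolation (higher by 0.323 points), and differed by -1.60 points with it afterwards, -2.35 with other peaks weighted to the members' fragments, and -1.52 with promoters of 1 kb. The difference in width was -60.0 bp with the filter afterwards and -12.0 bp with the weights. The AP-1 difference was 1.33 points within 50 bp and 8.73 within 250 bp. Against other peaks over 1 kb from a neighbor, chosen after seeing the data, the differences were 0.0 in fold, -3.0 bp in width, -0.425 points in promoter share, -1.49 points in GC and 1.93 points in AP-1 share. With 11 fragments at the median summit, a single peak's fold is imprecise, and whether a given peak would recur in another tumor cannot be told from 1 library.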
